A study of Mus musculus with 20 samples.

Results

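Immediate early genes are the first genes a cell transcribes after a growth factor, serum or a stress reaches it. The 10 genes described here are Fos, Fosb, Jun, Junb, Egr1, Egr2, Ier2, Ier3, Arc and Atf3. They were taken by gene symbol, and each was measured by 1 probe, out of 25697 probes and 16593 genes on an Illumina mouse bead array. The genes were selected on their log2 levels in the 5 groups of these same arrays, so their levels and differences are given as a description, with standard errors and without p-values. The series holds 20 arrays of total RNA, 4 for each of 5 titled groups. E14-mES and C57-mES are embryonic stem (ES) cells by their titles, and GFPoct4 is an ES cell by its source and cell type fields. The group sFB-protein-iPS is labelled as mouse induced pluripotent stem (iPS) cells, somatic cells returned to an ES-like state. The group FVB-sFB carries the embryonic stem cell label in its source and cell type fields, whereas the series title speaks of skin fibroblasts. C57 and FVB in the titles are names of mouse strains, and the title of the iPS group names sFB and protein. Strain cannot be told apart from group in any comparison below. No treatment, serum level, passage, sex, age or time since the last change of medium is given for any group, and nothing says whether the 4 arrays of a group came from separate cultures, so errors speak only for the spread between arrays.

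Transcription of these genes needs no new protein. MAP kinases phosphorylate Elk-type factors that sit with serum response factor (SRF) on CArG boxes, and CREB and ATF proteins bind cyclic AMP response elements, so that the messages appear within minutes and decay fast. Fos and Jun proteins pair to form the AP-1 transcription factor, Egr1 and Egr2 are zinc finger transcription factors, and Arc is a cytoskeleton-associated protein best known from synapses. In mouse ES cells, ERK signalling downstream of fibroblast growth factor is known to favour the exit from self-renewal.

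RefSeq promoter windows on the build GRCm38.p6 were matched for 7 of the 10 genes (Fos, Fosb, Jun, Junb, Egr2, Ier3 and Atf3), and 6 motifs were searched on both strands over the 250 bases before each start. The motifs were the CArG box, TGACGT (the core of the cyclic AMP response element), TATAAA, GCGNGGGCG (the EGR site), CCAAT and TGANTCA (the AP-1 site). The 4 stretches below belong to the 3 genes in which TGACGT was found, and to Ier3, which was ordered unlike the other members. Capitals mark matches to the CArG box, to the core of the cyclic AMP response element on either strand, or to the TATA motif.
Fos, the last 120 bases before the start, chr12:85473770-85473889, plus strand: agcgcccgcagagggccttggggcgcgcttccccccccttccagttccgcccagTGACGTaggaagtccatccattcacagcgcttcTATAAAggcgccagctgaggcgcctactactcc
Egr2, 30 bases of a window, chr10:67537795-67537824, plus strand: gtCCATATATGGgcagcgACGTCAcgggta
Atf3, the last 60 bases before the start, chr1:191183334-191183393, minus strand: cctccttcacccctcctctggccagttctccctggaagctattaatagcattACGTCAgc
Ier3, the last 120 bases before the start, chr17:35821593-35821712, plus strand: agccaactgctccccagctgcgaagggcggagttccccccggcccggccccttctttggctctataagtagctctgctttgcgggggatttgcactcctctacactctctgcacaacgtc

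The matches differed between members. Egr2 has 5 windows and the other matched genes have 1 each, so a gene is counted where any of its windows holds the motif. A CArG box was found for Egr2 alone among the 7 genes, in 4 of its 5 windows, and for 1.62% of 27025 genes. Numbered by genome position, windows 3, 4 and 5 of Egr2 overlap and share the same CCATATATGG site. Window 2 holds a different match, CCTTTTTTGG. TGACGT was found for Fos, Egr2 and Atf3, against 7.29% of all genes, and TATAAA for Fos, against 14.3%. GCGNGGGCG was found for Fosb (5.33% of all genes), CCAAT for Jun, Junb, Egr2 and Ier3 (37.5%), and TGANTCA for none of the 7 (7.82%). No match overlapped another, and the Ier3 stretch carries none of the 3 motifs that capitals mark. The serum response element of Fos is known to lie farther upstream than the searched window.

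Values below are log2 intensities after background correction and quantile normalization of the arrays. Background was read from 1305 olfactory and vomeronasal receptor probes, and their 95th percentile on each array lay between 6.68 and 6.83 on the log2 scale over the 20 arrays. Array 4 of E14-mES stood apart, with a raw median of 179 against 115 to 123 on the other 3 arrays of its group, and with 254 genes at least 1 log2 unit below and 73 at least 1 above those arrays. Array 1 of GFPoct4 had 192 genes that far below and 5 that far above the rest of its group. The deviations of FVB-sFB arrays 1 and 2 from their group mean correlated across genes (r = 0.525), as did those of arrays 3 and 4 (r = 0.390), with at most -0.708 across the pairs. The brightest raw probe reached 58519 to 63254 in E14-mES and GFPoct4, and 45509 to 52180 in the other groups. The part of this scanner range in the results was not tested.

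The labels were set against markers. All 8 pluripotency markers were above background on every array of the 3 ES groups and of the iPS group, where their normalized intensities summed to between 112330 and 146807. In FVB-sFB 1 of the 8 was above background on all arrays, and the sum was 787 to 826. All 10 fibroblast markers were above background in FVB-sFB (sum 107488 to 125518). The values therefore went against the embryonic stem cell label of FVB-sFB and followed its title. The 5 measured macrophage and leukocyte markers summed to 2776 to 3044 in FVB-sFB, against 353 to 424 over the other groups. In FVB-sFB 2 of the 5 were above background on all arrays, with Lyz2 at 11.07 and Cd14 at 8.85. The group means of Ptprc (6.40), Adgre1 (6.39) and Itgam (6.29) lay under the background level there, so the sum came mainly from Lyz2 and Cd14. The part of such cells in the FVB-sFB levels was not tested. In bulk RNA, fewer cells of a type and less RNA per cell cannot be told apart.

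Across the 10 genes, 3 patterns stood out (the plots of every array and of centred group means). On this scale E14-mES had the lowest group mean of Fos, Fosb, Jun, Junb, Egr1, Egr2 and Atf3, by the greatest margin for Fos and Egr1. The iPS group had the highest mean of Fos, Egr1, Arc and Atf3, by the greatest margin for Arc. FVB-sFB was highest for Jun, Junb, Egr2 and Ier3, and lowest for Arc.

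**Figure D1:**
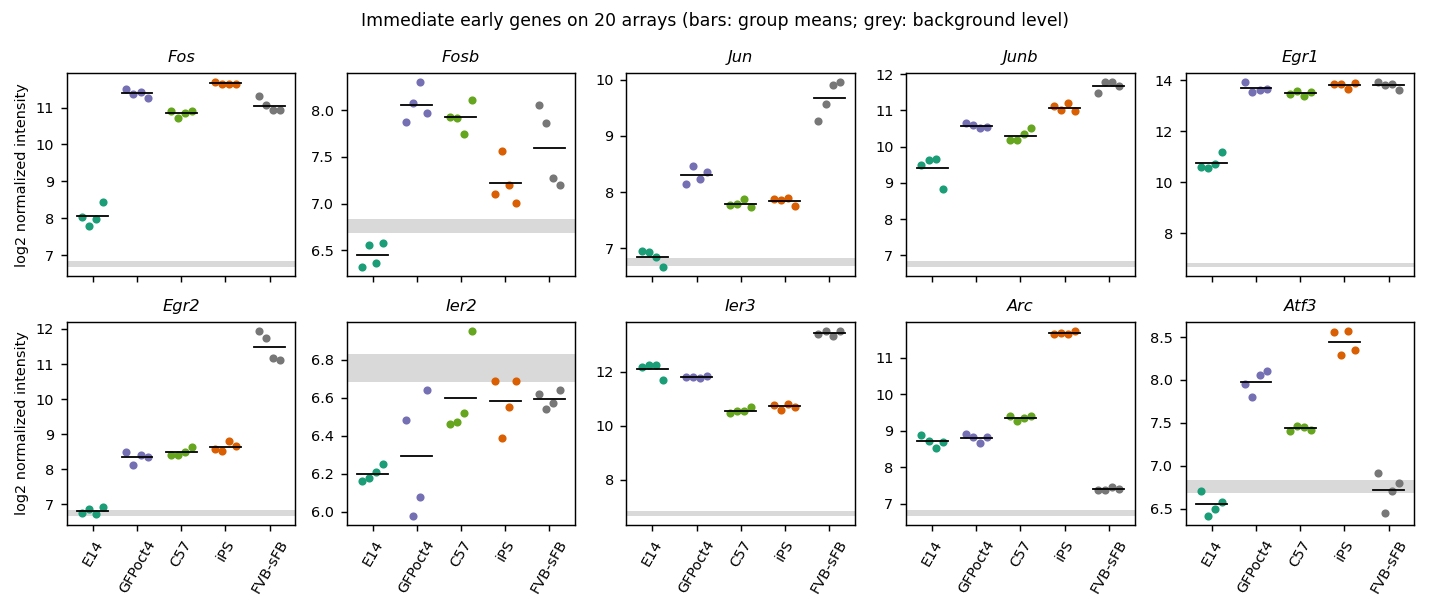
Log2 normalized intensity of each of the 10 genes (vertical axes, each with its own range) on the 20 arrays, by group on the horizontal axis. Points are arrays, bars are group means of 4 arrays, and the grey band is the range of the background level. The E14-mES points of Fos lie between 7.78 and 8.43, below all other groups, and the iPS points of Arc between 11.65 and 11.73, above all other groups.

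Fos encodes the founding partner of AP-1. Its raw intensities on the 4 E14-mES arrays were 280, 236, 248 and 727, and after normalization 8.02, 7.78, 7.97 and 8.43 on the log2 scale. The GFPoct4 arrays read 11.49, 11.36, 11.43 and 11.27, and the C57-mES arrays 10.91, 10.72, 10.85 and 10.91. Every E14-mES array was thus far below every array of the other ES groups, including array 4, the highest of the 4. The iPS arrays were close to each other at 11.68, 11.64, 11.65 and 11.65. The FVB-sFB arrays read 11.30, 11.06, 10.92 and 10.92, with the higher values on arrays 1 and 2. By group mean the order was iPS (11.66 ± 0.02, SD, n = 4), GFPoct4 (11.39 ± 0.10), FVB-sFB (11.05 ± 0.18), C57-mES (10.85 ± 0.09) and E14-mES (8.05 ± 0.27). Neighbours in that order were separate on all arrays except GFPoct4 and FVB-sFB. Without normalization, on the authors' value table, iPS lay below GFPoct4 (-0.07) and FVB-sFB (-0.27), while E14-mES was the lowest group under each scaling tried.

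Fosb, a second Fos-type partner of Jun, was dimmer. It was not above background on any E14-mES array (6.32, 6.55, 6.36 and 6.58). GFPoct4 read 7.88, 8.08, 8.30 and 7.97, C57-mES 7.93, 7.92, 7.75 and 8.11, and these groups overlapped. The iPS arrays lay lower, at 7.10, 7.56, 7.20 and 7.01, without overlap with either ES group above them. In FVB-sFB the values split by array, 8.06 and 7.87 on arrays 1 and 2 against 7.27 and 7.20 on arrays 3 and 4, so that the group spanned from the iPS to the ES range. Fosb and Fos thus differed in the iPS cells, where Fos was at its highest and Fosb below GFPoct4 and C57-mES.

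Jun encodes the main DNA-binding partner in AP-1. It was brightest in FVB-sFB, at 9.27, 9.56, 9.91 and 9.95, with the lower values on arrays 1 and 2, the reverse of Fosb. GFPoct4 followed at 8.14, 8.47, 8.24 and 8.36. The iPS (7.85 ± 0.07, SD, n = 4) and C57-mES (7.79 ± 0.05) arrays overlapped, and on the other scalings their order turned (-0.18 with median centring and -0.40 on the value table). E14-mES was lowest, at 6.95, 6.93, 6.84 and 6.67, and array 4 was not above background.

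Junb, a Jun relative that forms AP-1 with weaker transforming activity, was measured on all arrays. FVB-sFB was highest (11.49, 11.77, 11.77 and 11.68), followed by iPS (11.13, 11.00, 11.19 and 10.97). GFPoct4 (10.66, 10.60, 10.50 and 10.53) and C57-mES (10.17, 10.18, 10.35 and 10.51) came next and met at their edges. E14-mES was lowest again at 9.49, 9.63, 9.67 and 8.84. Here array 4 was the lowest of its group, whereas for Fos and Egr1 it was the highest.

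Egr1 encodes a zinc finger activator that growth factors induce through SRF. Its raw intensities in E14-mES were 1603, 1498, 1565 and 4681, against 11061 to 13280 in GFPoct4, 9081 to 13508 in C57-mES, 9263 to 11897 in iPS and 14304 to 21062 in FVB-sFB. Normalized, E14-mES read 10.59, 10.55, 10.73 and 11.19, and the 16 arrays of the other groups lay between 13.37 and 13.92. These 16 overlapped from group to neighbouring group, with group means from 13.49 ± 0.09 (SD, n = 4) in C57-mES to 13.82 ± 0.10 in iPS. For Egr1 the contrast was therefore between E14-mES and the rest.

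Egr2, its relative known from hindbrain and Schwann cell development, combined a low E14-mES level with a high FVB-sFB level. E14-mES read 6.75, 6.86, 6.72 and 6.91 and was above background on 3 of 4 arrays. GFPoct4 (8.34 ± 0.16, SD, n = 4), C57-mES (8.49 ± 0.10) and iPS (8.63 ± 0.12) lay close together, with overlap between neighbours, and iPS was not the highest of these under the other scalings. FVB-sFB read 11.94, 11.74, 11.16 and 11.11, from raw intensities of 5840, 4614, 3293 and 2391. All 4 were far above the other groups, and arrays 1 and 2 were again above arrays 3 and 4.

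Ier2 and Ier3 are short proteins named for their early induction, the latter known as a modulator of apoptosis. The Ier2 probe was above background on 1 of 20 arrays, with group means from 6.20 to 6.60, and no difference between groups can be read from it. Ier3 was bright on all arrays and ordered unlike the other members. FVB-sFB was highest (13.40, 13.50, 13.32 and 13.50), then E14-mES (12.18, 12.23, 12.26 and 11.69) and GFPoct4 (11.79, 11.80, 11.75 and 11.83), which overlapped through E14-mES array 4. The iPS (10.76, 10.59, 10.80 and 10.70) and C57-mES arrays (10.48, 10.53, 10.55 and 10.69) overlapped at the bottom. E14-mES, lowest for 7 of the members, was thus among the higher groups for Ier3.

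Arc set the iPS cells apart. The iPS arrays read 11.65, 11.69, 11.65 and 11.73, from raw intensities of 2333, 2521, 2160 and 2589. C57-mES read 9.41, 9.28, 9.35 and 9.40, while GFPoct4 (8.80 ± 0.11, SD, n = 4) and E14-mES (8.71 ± 0.14) overlapped. FVB-sFB was lowest at 7.38, 7.38, 7.46 and 7.42, still above background on all arrays. Of 5 neuronal markers (Tubb3, Syp, Snap25, Rbfox3 and Map2) 3 were above background on all iPS arrays, as in each ES group, and their summed intensity was 870 to 923 in iPS against 573 to 839 over the ES groups and 505 to 533 in FVB-sFB. Rbfox3 read 8.36 in iPS against 7.24 in E14-mES, 7.14 in GFPoct4 and 8.10 in C57-mES. Snap25 (6.08 in iPS) and Tubb3 (6.69) lay near or under background. By the call rule given below, 0 of the 5 differed between iPS and the mean of the ES groups, or C57-mES alone. Against E14-mES and against GFPoct4, 1 was called higher. The part of neuronal transcripts in the Arc level was not tested.

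Atf3, a stress-induced member of the ATF family, was also highest in iPS (8.56, 8.29, 8.57 and 8.35). GFPoct4 followed at 7.95, 7.80, 8.06 and 8.11, and C57-mES at 7.41, 7.46, 7.45 and 7.42. It was above background on 2 of 4 FVB-sFB arrays and on none in E14-mES (6.55 ± 0.13, SD, n = 4). On the unnormalized value table iPS was not above GFPoct4 (-0.09).

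**Figure D2:**
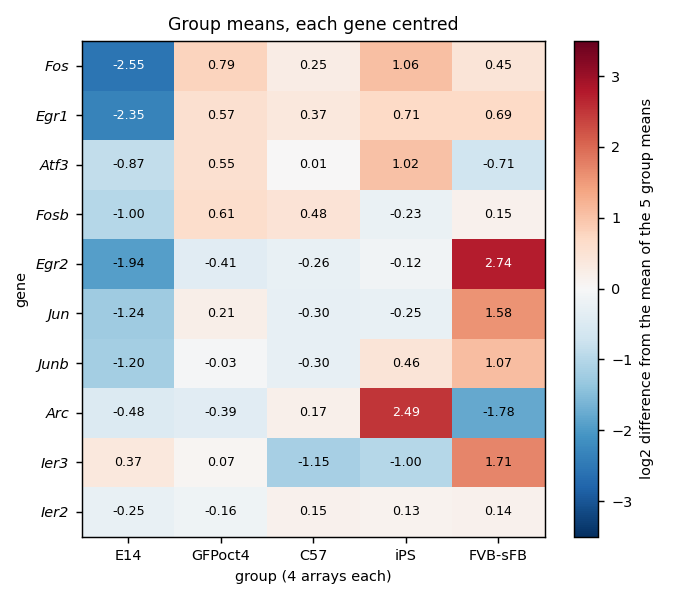
Group means of each gene minus the mean of its 5 group means (colour and printed value, log2), with groups in columns and genes in rows. The E14-mES column holds the lowest values of Fos (-2.55) and Egr1 (-2.35), the iPS column the highest of Arc (2.49), and the FVB-sFB column the highest of Egr2 (2.74).

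The differences between E14-mES and the other ES groups were then taken from 1 linear model of all arrays, with a call wherever a gene had an adjusted p below 0.05 and a log2 difference of at least 1 in size. The members were chosen on these same values. In every comparison below, a call of a member is therefore a description of its difference and not a test of it. E14-mES was lower than GFPoct4 by 3.34 ± 0.11 (SE) on the log2 scale for Fos, a 10.1-fold difference, and by 2.93 ± 0.12 for Egr1, a 7.6-fold difference.

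Against C57-mES the same genes differed 6.96-fold (Fos, -2.80 ± 0.11) and 6.61-fold (Egr1, -2.72 ± 0.12). Where a probe was not above background on all E14-mES arrays, the fold is a lower bound set against the background level. On that reading Egr2 was at least 2.88-fold, Jun at least 2.74-fold, Fosb at least 2.52-fold and Atf3 at least 2.38-fold lower in E14-mES than in GFPoct4. Junb was 2.25-fold lower. For Arc (-0.09 ± 0.08) and Ier3 (0.30 ± 0.10) the arrays of E14-mES and GFPoct4 overlapped, and the sign of Arc turned with median centring (0.07) and on the value table (0.23). Against C57-mES Ier3 was 2.88-fold higher in E14-mES (1.53 ± 0.10).

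In total 7 of the 10 members were called lower in E14-mES than in GFPoct4, where 1.17% of all genes were called lower. Against C57-mES 4 were called lower, with 3.15% of all genes, and 1 higher, with 4.04%. These counts describe how the genes were chosen and carry no further weight. The arrays of E14-mES and GFPoct4 did not overlap for those 7 members, as for 9.03% of all genes in that direction. Without E14-mES array 4 the Fos and Egr1 differences from GFPoct4 were larger (-3.46 and -3.09), while that of Junb was -0.98 and no longer called. Junb was also not called with median centring (-0.98) or on the value table (-0.81).

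Among the ES groups the summed intensity of fibroblast markers had the same order as the Fos means, though not the same spacing. The 10 fibroblast markers summed to 6000 to 6750 in GFPoct4, 2097 to 2423 in C57-mES and 1285 to 1569 in E14-mES. The iPS group, with the highest Fos mean on this scale, had the lowest sum, at 1221 to 1280. Of the fibroblast markers 4 of 10 were called lower in E14-mES than in GFPoct4, and 6 were not called. Against C57-mES 2 were called lower and 8 were not called. The markers highest in GFPoct4 were Dcn (11.66, against 6.33 in E14-mES) and Fbln2 (10.04, against 7.29). Col1a1 was above background on 0 of 4 arrays in E14-mES and in GFPoct4. In GFPoct4 the means of Col3a1 (6.14) and Lum (6.31) lay under background and that of Col1a2 (6.75) near it, while 6 of the 10 markers were above background on all arrays. The part of fibroblast transcripts in the Fos and Egr1 differences was not tested.

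Between GFPoct4 and C57-mES Ier3 was the only member called, 2.34-fold higher in GFPoct4 (1.23 ± 0.10), where 7.69% of all genes were called either way. The other 9 differed by 0.13 to 0.56 in size.

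**Figure D3:**
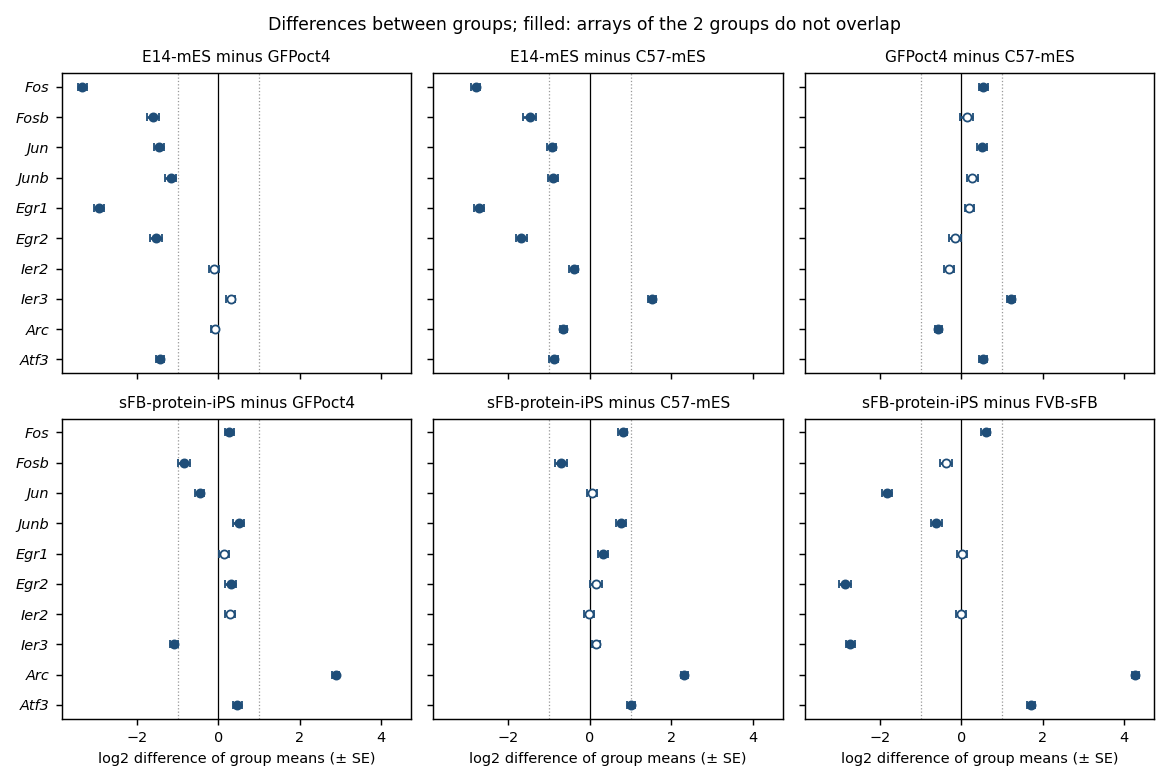
Log2 differences of group means with their standard errors (horizontal axes) for the 10 genes (vertical axes) in 6 comparisons of 4 arrays against 4. Filled points mark genes whose arrays do not overlap between the groups, and dotted lines mark a difference of 1. Fos and Egr1 lie at -3.34 and -2.93 for E14-mES minus GFPoct4 and at 0.27 and 0.13 for iPS minus GFPoct4, and Arc lies at 4.27 for iPS minus FVB-sFB.

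Arc was called higher in iPS than in each of the 3 ES groups. It was higher in iPS than in GFPoct4 by 2.88 ± 0.08 (7.36-fold), than in E14-mES by 2.97 ± 0.08 (7.85-fold) and than in C57-mES by 2.32 ± 0.08 (4.99-fold). Against C57-mES Atf3 was the other member called (1.01 ± 0.10, 2.01-fold), where 4.39% of all genes were called. That call sat at the threshold and was lost with median centring (0.70), on the value table (0.46), without background correction (0.96) and without C57-mES array 1 (1.00) or iPS array 1 (0.98) or 3 (0.97).

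Against GFPoct4 Ier3 was called beside Arc, 2.11-fold lower in iPS (-1.08 ± 0.10), where 6.15% of all genes were called. Fosb was called lower there with median centring (-1.02), on the value table (-1.17) and with an offset of 16 (-1.03). Against E14-mES 6 members were called higher (3.12% of all genes) and 1 lower (3.73%). Fos was 12.2-fold (3.61 ± 0.11) and Egr1 8.33-fold (3.06 ± 0.12) higher in iPS, Junb 3.17-fold, Egr2 at least 3.54-fold and Atf3 at least 3.29-fold. Ier3 was 2.59-fold lower. On the value table the Junb (0.91) and Egr2 (1.00) calls were lost.

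The mean over the 3 ES groups joins these unlike levels. Against it, Fos (1.56 ± 0.09), Egr1 (1.18 ± 0.09), Arc (2.72 ± 0.07) and Atf3 (1.12 ± 0.08) were called higher in iPS, where 1.47% of all genes were called higher. For Fos the differences from the single groups were 3.61, 0.27 and 0.81, and for Egr1 3.06, 0.13 and 0.33. These comparisons share the iPS arrays. The Egr1 and Atf3 calls against the mean were lost with median centring (0.97 and 0.79) and on the value table (0.74 and 0.48). Under the same scalings Ier3 was called lower (-1.06 and -1.28), so that 2 members were called higher and 1 lower.

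Between iPS and FVB-sFB 5 of the 10 members were called, where 22.9% of all genes were called. Arc was 19.3-fold (4.27 ± 0.08) and Atf3 at least 3.1-fold higher in iPS. Egr2 was 7.22-fold (-2.85 ± 0.14), Ier3 6.57-fold (-2.72 ± 0.10) and Jun 3.55-fold (-1.83 ± 0.12) lower. With only FVB-sFB arrays 3 and 4 kept, the Egr2 difference was -2.49 and that of Jun -2.08, and with only arrays 1 and 2 they were -3.21 and -1.57. Egr1 did not separate the groups (0.01 ± 0.12), and its sign turned with median centring (-0.30). Junb passed the fold threshold with median centring (-1.05) and on the value table (-1.50), where the Atf3 call was lost (0.83).

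The ES mean against FVB-sFB called 6 members, where 22.6% of all genes were called. Jun, Junb, Egr1, Egr2 and Ier3 were lower in the ES mean and Arc higher. Egr2 was at least 12.2-fold (-3.61 ± 0.11) and Jun at least 4.07-fold (-2.03 ± 0.09) lower. For Egr1 (-1.16 ± 0.09) the ES arrays overlapped those of FVB-sFB, the low values being those of E14-mES.

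Genes that belong to the same pathway but were not members were tested in the same model, with p-values from limma adjusted by the Benjamini-Hochberg method over all genes. The shares of all genes called, given above by comparison, are the background for the list counts that follow. Srf, which encodes the factor that binds the CArG box, was lower in E14-mES than in GFPoct4 by 1.20 ± 0.10 (2.3-fold, adjusted p = 2.11e-09) and than in C57-mES by 1.52 ± 0.10 (2.88-fold, adjusted p = 6.49e-12). The E14-mES arrays read 9.21, 9.20, 9.41 and 9.61 for Srf, the iPS arrays 11.66, 11.54, 11.49 and 11.63, and the other 12 arrays lay between 10.42 and 10.94. Srf was 4.67-fold higher in iPS than in E14-mES (adjusted p = 7.28e-15). The difference between E14-mES and GFPoct4 did not pass the fold threshold on the value table (-0.83) or with the mean of its probes (-0.75).

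**Figure D4:**
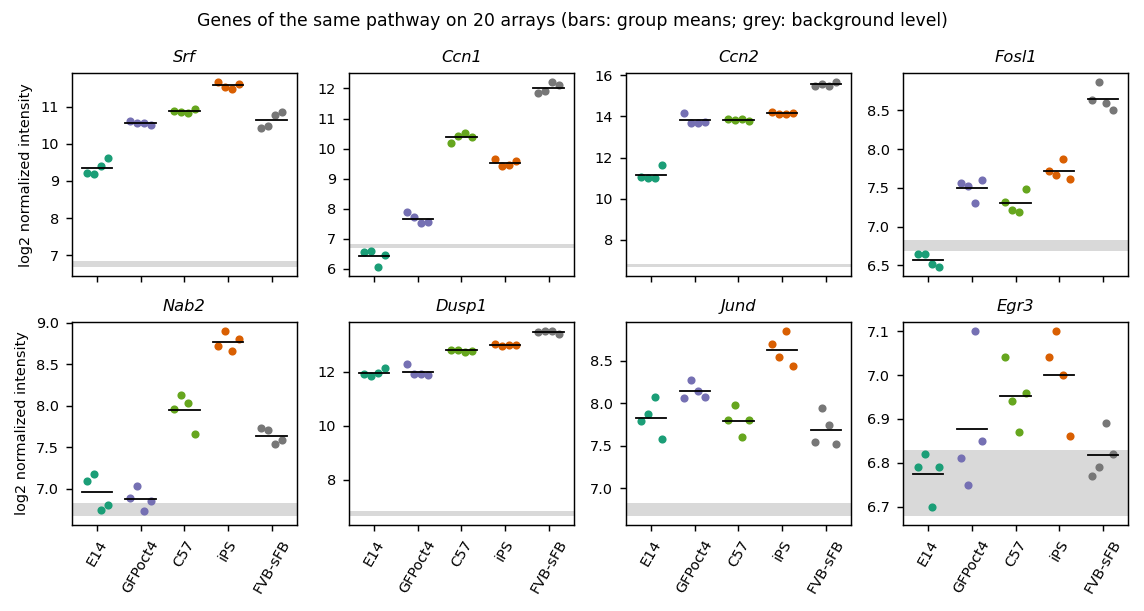
Log2 normalized intensity (vertical axes, each with its own range) of 8 genes of the pathway that are not members, on the 20 arrays by group (horizontal axis). Points are arrays, bars group means of 4 and the grey band the range of the background level. For Srf and Ccn2 the E14-mES points lie below all others, at 9.20 to 9.61 and 10.98 to 11.63.

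Of 48 measured other immediate early genes, 4 were called lower and 0 higher in E14-mES than in GFPoct4, with a list median of -0.09 against 0.01 for all genes. No gene measured here bore the symbol Zfp36l2, and the 48 count the probe of Brf2 in its place, by a shared older name. Brf2 is also the symbol of a different gene, so Zfp36l2 itself may not have been measured. The Brf2 group means lay between 9.24 and 10.06, so that probe reached the fold threshold in no comparison. The 4 called lower were Ccn2 (-2.64 ± 0.12, adjusted p = 1.7e-14) and Ccn1 (at least 1.93-fold lower, adjusted p = 6.95e-09), which encode matrix-associated signalling proteins and are known SRF and YAP targets, Rhob, a small GTPase (-1.55 ± 0.11), and Cebpb, a transcription factor (-1.07 ± 0.12). The Cebpb call was lost without E14-mES array 4 (-0.90), with median centring (-0.87) and on the value table (-0.70). Against C57-mES 11 of the 48 were called lower and 2 higher in E14-mES, with a median of -0.23. Ccn1 was at least 12.6-fold, Csrnp1 15.0-fold, Gadd45g 8.42-fold and Ccn2 6.3-fold lower there. Csrnp1 and Gadd45g were also lower in GFPoct4 than in C57-mES (9.34-fold and 4.62-fold).

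Fosl1, a Fos relative, was above background on 0 of 4 E14-mES arrays, so that its difference from GFPoct4 has only a lower bound, at least 1.71-fold. The fitted difference of -0.93 ± 0.10 was under the fold threshold (adjusted p = 6.04e-08), and it passed that threshold with an offset of 16 (-1.26) and with median centring. Jund, often described as the steadier Jun protein, differed between E14-mES and GFPoct4 by -0.31 ± 0.12 (adjusted p = 0.0672). Egr3 lay near background in every group, and Nr4a1, an orphan nuclear receptor, was below it in every group. Dusp1, the phosphatase that switches MAP kinases off, differed by -0.04 ± 0.09 (adjusted p = 0.833) between E14-mES and GFPoct4, and Myc by 0.30 ± 0.11 (adjusted p = 0.0526).

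Against E14-mES, 14 of the 48 were called higher in iPS and 1 lower, with a list median of 0.70 against 0.01 for all genes. Ccn1 (at least 6.97-fold), Ccn2 (7.89-fold), Klf6 (3.81-fold) and Csrnp1 (3.59-fold) had the largest differences. The number called dropped from 15 to 8 with median centring and to 9 on the value table. Against GFPoct4 9 of the 48 were higher in iPS and 0 lower, among them Ccn1 (3.62-fold), Zfp36, which destabilizes early messages (3.52-fold), Id1 (2.64-fold) and Socs3 (2.38-fold). On the value table the Socs3 call was lost (0.99), and 3 were called higher and 1 lower, of which 3 were among the 9. Against C57-mES 3 were higher and 2 lower, but 2 higher and 3 lower with median centring and 2 higher and 4 lower on the value table. Against FVB-sFB, where 22.9% of all genes were called, 6 were higher and 9 lower, but 4 higher and 14 lower with median centring and 3 higher and 17 lower on the value table. There Gadd45g was 20.4-fold and Ccn1 5.63-fold lower, and Klf2 9.17-fold and Socs3 5.11-fold higher in iPS.

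Among 26 measured genes of ERK feedback and the delayed early response, 5 were called lower and 0 higher in E14-mES against GFPoct4 (median -0.07). The 4 largest were Mmp3 (at least 3.96-fold), Timp1 (3.68-fold), Ccnd1 (2.56-fold) and Plau (at least 2.07-fold). Mmp3, Timp1 and Plau act in proteolysis of the matrix, and GFPoct4 also had the higher sum of fibroblast markers, whose part was not tested. The Plau call was lost on the value table (-0.84). Against E14-mES 7 were higher and 1 lower in iPS, led by Phlda1 (16.5-fold, adjusted p = 1.86e-18), Plaur, the urokinase receptor (10.1-fold), Hbegf, a ligand of the EGF receptor (5.72-fold), and Spry4, an inhibitor of receptor signalling (4.89-fold). Against GFPoct4 7 were higher and 4 lower in iPS. Phlda1, Plaur and Spry4 were higher there (7.95-fold, 11.8-fold and 7.12-fold), and Mmp3 was at least 3.7-fold lower. Against C57-mES 5 were higher and 0 lower, with Hbegf (4.32-fold) and Plaur (4.07-fold) first. Against FVB-sFB 9 were higher and 8 lower, where 11.6% of all genes were called higher and 11.4% lower.

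Of 24 measured genes of the MAP kinase cascade and its transcription factors, Srf was the 1 gene called between E14-mES and GFPoct4 (median 0.02). Map2k1, a kinase that activates ERK, was at least 3.45-fold higher in E14-mES than in C57-mES and at least 2.79-fold higher in GFPoct4 than in C57-mES (adjusted p = 6.7e-14 and 1.91e-12). Its means were 8.52 in E14-mES, 8.22 in GFPoct4 and 6.65, near background, in C57-mES. Map2k2, another such kinase in the list, was brighter and read 11.22, 11.09 and 11.35 in the same order. Between iPS and C57-mES 0 of the 24 were called, where 4.39% of all genes were called. Among 23 growth factor and cytokine receptors the PDGF receptor gene Pdgfra was the 1 called between E14-mES and GFPoct4, at least 3.34-fold lower in E14-mES. Pdgfra also stands in the list of fibroblast markers.

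Of 17 measured cytoskeletal targets of SRF and its cofactors, Acta2 was called lower in E14-mES than in GFPoct4 (at least 3.64-fold, adjusted p = 5.17e-16), a call lost with the mean of its probes (-0.92). Against C57-mES 5 were lower and 0 higher, with Acta2 at least 22.3-fold and Zyx 2.38-fold lower. In iPS 6 of the 17 were higher and 0 lower than in E14-mES, led by Zyx (2.83-fold). On the value table the calls of Zyx (0.86), Actn1 (0.67), Tagln (0.66) and Actg1 (0.54) were lost, as was that of Actn1 with median centring (0.97). Against FVB-sFB 13 of the 17 were lower in iPS and 0 higher, Acta2 by 354-fold. Over all genes 11.4% were called lower and 11.6% higher in that comparison.

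The corepressors Nab1 and Nab2, which bind EGR proteins, were measured in a list of 14 partners. Nab2 was 3.51-fold higher in iPS than in E14-mES and 3.71-fold higher than in GFPoct4 (adjusted p = 1.18e-12 and 5.11e-13). It differed by 0.08 ± 0.11 (adjusted p = 0.707) between E14-mES and GFPoct4, the pair in which Egr1 differed 7.6-fold. Nab2 lay near background in both groups (6.75 to 7.18 in E14-mES, 6.74 to 7.03 in GFPoct4). A lower level in E14-mES could therefore hardly be seen. In that pair 0 of the 14 were called. Of 17 measured amino acid and unfolded protein stress genes, 1 was called higher and 5 lower in iPS than in the ES mean (median -0.71). Among 10 heat shock genes 1 was higher and 0 lower (median 0.15). Over all genes 1.47% were called higher and 1.79% lower in that comparison. The relation of these lists to the Atf3 level was not tested.

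Likeness of pattern was taken as the root mean square difference between the 5 centred group means, over 9824 genes above background in at least 1 group. Fos and Egr1 were closest to each other among the members, at 0.24 log2 units. Outside the members, Fos was nearest to Hexim1 (0.70), Srf (0.72) and Glipr2 (0.74), and Egr1 to Ccn2 (0.59), Glipr2 (0.61) and Amotl2 (0.62). Junb had close neighbours in Cxcl16 (0.08), Fosl1 (0.17) and Amotl2 (0.18), and Jun in Rhob (0.15), Camk1 (0.17) and Rhoc (0.21). Egr2 was nearest to Zyx (0.24), Socs5 (0.31) and Efnb1 (0.38). Ier3 was nearest to Snx7 (0.21), Pja2 (0.22) and Zadh2 (0.22), and Fosb to Gstp1 (0.18), Uck1 (0.28) and Gys1 (0.32). Arc had Tead4 (0.42), Amn (0.44) and Sox17 (0.47), and Atf3 had Ccnl1 (0.25), Osr2 (0.25) and Pcca (0.29).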

How the data were processed

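Biotin-labelled cRNA was made from 500 ng of total RNA, per the labels. Probe values came from BeadStudio (version not given), per the submitters' processing notes. The deposited table of intensity holds linear values with no background correction or normalization stated. The authors' deposited value table holds log2 values that equal the log2 of that intensity to within 5e-09. No detection p-values, slides or dates were used, since the sources here give none. Precision is limited by the number of arrays.

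Intensities were corrected with normexp (offset 50), taken to log2 and quantile normalized in limma 3.58.1 (R 4.3.3). Dim probes were kept. A single gene symbol was attached to 23978 of 25697 probes and none to 1719, and the brightest probe stood for each of 4777 genes with several, giving 16593 genes. limma fitted 5 group means to 20 arrays, with moderated tests adjusted by the Benjamini-Hochberg method over all genes, in 9 comparisons. A fold is a lower bound where the dim side was not above background on all its arrays: on each array of that side, a value under the background level was replaced by it. The steps were tested on simulated data. Samples were grouped by title.

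The members, the gene lists, the receptor probes and the alternatives were chosen with earlier results of these data known. Outside the members, up to 4 called genes a list by size of difference were named, with Srf, Dusp1, Fosl1, Jund, Egr3, Nr4a1, Ccn1, Ccn2, Nab2 and Myc always, and for likeness the 3 nearest genes. The lists held 249 entries, of which 218 were measured, counting Brf2 for Zfp36l2. Replicate numbers share no stated source: of 40 same-numbered pairs of arrays in different groups 5 had correlated deviations (r over 0.1), and the fit treats no arrays as paired.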

Additional observations from a re-analysis of the deposited data

Results flagged for a closer look

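Of 50 sets of 4 arrays (10 genes in 5 groups) 3 held an array far from the other 3 by Dixon's test, where chance gives about 1 in 20. Fos on iPS array 1 read 11.68 against 11.64 to 11.65 on the others, a small step in a very tight group. Ier2 on C57-mES array 4 read 6.95 against 6.46 to 6.52 and was the 1 array of 20 above background for that probe. Ier3 on E14-mES array 4 read 11.69 against 12.18 to 12.26. That array also stood apart over all genes.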

How the results depend on the processing

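Each difference was recomputed with median centring, the unnormalized value table, no background correction, an offset of 16, dim genes left out, the mean of a gene's probes, only the groups compared, each array left out and, for FVB-sFB, each pair of arrays left out. Of 90 member differences 18 changed their side of the call under at least 1 of these, and 21 of the 42 such changes came from median centring or the value table. No called difference of a member or a tested gene turned its sign. The members called between iPS and C57-mES went from 2 to 1 with median centring and with no background correction, and ranged from 1 to 2 with single arrays left out. Between iPS and E14-mES the other immediate early genes called went from 15 to 8 with median centring and 9 on the value table, and between iPS and GFPoct4 from 9 to 4 on the value table. Over all genes the value table called 1437 in place of 541 for iPS against the ES mean, 2895 in place of 1137 against E14-mES and 1165 in place of 729 against C57-mES, and an offset of 16 called 819 against the ES mean. The cause of these changes was not tested. On the value table the median difference of all genes was -0.41 for iPS against E14-mES, -0.25 against GFPoct4, -0.18 against C57-mES, -0.28 against the ES mean and -0.41 against FVB-sFB, and 0.17 and 0.24 for E14-mES against GFPoct4 and C57-mES.

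The share of called genes that were higher moved with the scaling. It was 38.4% for E14-mES against GFPoct4, 56.3% with median centring and 74.7% on the value table. Against C57-mES it was 56.2%, 73.3% and 80.9% in the same order. For iPS it was 45.6%, 11% and 3.11% against E14-mES, 43.6%, 17.3% and 8.67% against GFPoct4, 46.5%, 24.3% and 9.96% against C57-mES, 45.1%, 15.2% and 4.52% against the ES mean, and 50.4%, 33.9% and 16.4% against FVB-sFB. For the ES mean against FVB-sFB it was 51.5%, 47.4% and 35.1%. With the replicate block 7 members were again called between E14-mES and GFPoct4 and 2 between iPS and C57-mES, and the closest array of another group bore the same number for 7 of 20 arrays. The block moved no count of calls by over 1.5 times. Probes near the background level, Ier2 above all and Fosb, Atf3, Jun and Egr2 in E14-mES, have no measurable difference below that level.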
